A study of Mus musculus with 10 samples.

Results

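The nuclear genes for the protein subunits of oxidative phosphorylation were described in cells of mouse small-intestinal crypts. Members were chosen by symbol, as every row whose symbol starts with Nduf, Uqcr, Atp5, Cox4, Cox5, Cox6, Cox7 or Cox8, together with Sdha, Sdhb, Sdhc and Sdhd. This gave 87 of the 18022 genes listed over all libraries. The 10 CEL-seq2 libraries came from crypts of C57Bl/6 mice, whose age and sex the labels do not give, and no library was treated or carried a named allele. Of these, 7 held single cells sorted after crypt dissociation, and their titles carry the codes GK5a (sorted 1 to 5) or GK5b (sorted 6 and 7). The other 3 held doublets or triplets of cells that were mouth-picked after a milder dissociation and carry JC codes (picked 1 to 3), so a picked well mixes the RNA of several cells. The code could not be separated from the group. The titles of sorted 1 to 5 share the part M2, whose meaning is not given, and whether these 5 share a source is not stated. Those of sorted 6 and 7 end in G and L, whose meaning is not given either. No label ties libraries to animals, and the p-values below therefore cover the spread among libraries alone, which may be technical.

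The mitochondrial respiratory chain passes electrons from NADH and succinate to oxygen. Complex I (NADH dehydrogenase, Nduf genes) and complex II (succinate dehydrogenase, Sdh genes, which is also an enzyme of the citric acid cycle) feed ubiquinone. Complex III (Uqcr genes) and complex IV (cytochrome c oxidase, Cox genes) carry the electrons on, and complex V (ATP synthase, Atp5 genes) uses the proton gradient to make ATP. The mitochondrial genome encodes a few core subunits of complexes I, III, IV and V, and these genes were not analysed here. In the gut, stem cells at the crypt base, dividing progenitors, Paneth cells, goblet cells and absorptive enterocytes differ in how they secrete, divide and absorb.

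The 87 members were grouped by the start of their symbol alone, which put 44 under complex I, 4 under complex II and 8 under complex III. It put 14 under complex IV and 17 under complex V. The group of a member, such as Ndufa4 under complex I, therefore need not be the complex that holds its protein. This applies to all values per complex below. The symbols also take in 7 complex I assembly factors (Ndufaf genes). Atp5s and Atp5sl (named Dmac2 in GENCODE) were not counted as subunits either, which leaves 78 subunits. CEL-seq2 counts a molecule once at its 3′ end, so counts scaled to the library total (CPM) were compared between genes without division by length. The sums over each complex, as means over the 10 libraries, were 15092 CPM for complex V, 10488 for complex I, 9498 for complex IV, 4232 for complex III and 1287 for complex II. The most abundant members were Atp5g3 (2318 CPM), which encodes the proton-carrying c subunit of ATP synthase, Atp5b (2138) and Atp5a1 (1657) of its catalytic head, and Cox8a (1609), Cox6a1 (1310.2) and Cox4i1 (1149) of complex IV. Next came Atp5g1 (1068), Uqcrq (1036), Atp5c1 (1024) and Cox6c (982). At the other end, Cox6a2, the muscle form of Cox6a1, was at 0.250 CPM from 4 transcripts in all, Ndufs5 at 0.781 CPM, Cox6b2 at 4.63 CPM and Cox7a1 at 32.5 CPM.

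Promoter sequences are shown for 3 members of different complexes that carry a motif of nuclear respiratory factor 1 (NRF1), a known regulator of respiratory-chain genes. Each had the most transcripts, summed over all libraries, among members of its complex with such a motif in the 110 bases before the start. Their levels also differed between cell classes (limma, below), but this did not enter the choice, and no link to the motif was tested. Promoters reaching from 250 bases before the start into the transcript were found for 74 members (RefSeq, GRCm38.p6). On either strand, the NRF1 motif, read as GCGCA and GCGC parted by 1 base, lay in 13 of these 74 (17.6%) and in 3.86% of 27025 promoters of the same length. The ETS core CCGGAAG bound by GABPA lay in 12 (16.2%, against 7.05%), and the ESRRA motif CAAGGTCA in 3 (4.05%, against 1.31%). The YY1 motif AAGATGGCG lay in 0, against 0.607%. The NRF1 motif reads nearly the same on both strands, so a single site can match on both. The windows below are 110 bases before the RefSeq start, written 5′ to 3′ on the gene's strand, with NRF1 matches in capitals. GENCODE places the 5′ ends of these genes farther upstream, at chr2:36049406 (Ndufa8), chr13:74350280 (Sdha) and chr15:102672352 (Atp5g2). By those ends the whole Atp5g2 window, the Ndufa8 match and the Sdha match nearest the start lie inside the gene. Ndufa8 (complex I, chr2:36049339-36049448, minus strand) had 1 match, Sdha (the flavoprotein of complex II, chr13:74350241-74350350, minus strand) had 3, and Atp5g2 (a c subunit of complex V, chr15:102671048-102671157, minus strand) had 1.
Ndufa8: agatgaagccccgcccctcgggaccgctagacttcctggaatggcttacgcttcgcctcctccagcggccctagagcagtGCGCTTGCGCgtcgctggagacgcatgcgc
Sdha: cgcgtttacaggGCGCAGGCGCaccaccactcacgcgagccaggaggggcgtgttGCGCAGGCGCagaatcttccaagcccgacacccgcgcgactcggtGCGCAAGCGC
Atp5g2: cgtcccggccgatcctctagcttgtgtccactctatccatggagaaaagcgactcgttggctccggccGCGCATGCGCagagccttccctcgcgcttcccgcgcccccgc
A match is a description of these letters and not a measured binding site.

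Wells with at least 1000 transcripts were used, 1615 sorted and 501 picked. The OXPHOS share is the percent of a well's transcripts that came from the 87 genes. Sorted libraries held 1022859 to 4832581 transcripts and picked libraries 821829 to 1232614. Median depth per well was 3361 to 7871 transcripts in GK5a, 13944 and 16427 in GK5b and 2756 to 7235 in picked libraries. Within every library the share rose with depth across wells (Spearman's rho from 0.193 to 0.511, as a description, since both measures come from the same wells). The variance between wells was 9.83 to 33.9 times the binomial counting variance.

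Wells were put into 5 classes that may overlap: Lgr5-positive (Lgr5 above 0, the stem cell receptor), cycling (Mki67 above 0), goblet (Muc2, Fcgbp, Zg16 and Clca3 at 2% or more), Paneth (Defa genes at 5% or more) and absorptive (Apoa1 and Apoa4 at 0.5% or more). Sorted libraries held 393 Lgr5-positive, 743 cycling, 362 goblet, 37 Paneth and 80 absorptive wells. Markers that did not define the classes went with the labels: 6 of 6 checked markers per class were higher in that class in every library used. Tff3 was at 33404 CPM in goblet and 1622 in other wells, Lyz1 at 131886 and 255 in Paneth and other wells, and Fabp2 at 41510.2 and 884 in absorptive and other wells. Lgr5-positive and cycling wells overlapped in 201 sorted wells, and cycling and goblet wells in 120. A single Mki67 or Lgr5 transcript is found more easily in a deep well, so both classes depend on depth.

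Among the 5 classes of sorted wells, taken at their full depth, the mean OXPHOS share was lowest in Paneth wells, low in goblet wells and highest in cycling wells. With sorted wells pooled over libraries, those of no class had a higher median (3.98%) than cycling wells (3.75%). The pooled wells mix the codes unevenly, and within libraries the order was the reverse. As means over libraries, wells of the cycling class alone were at 4.29% and wells of no class at 3.98%. Thinned absorptive wells (3.86%, n = 5 libraries) were level with thinned cycling wells (3.84%, n = 7), though not over the same libraries. Class and other wells were compared within each sorted library that had at least 5 of each, with an exact two-sided sign-flip test over libraries, adjusted over the 5 classes. In cycling wells the share was 3.88% ± 0.390 (SD, n = 7) against 3.22% ± 0.502 in other wells, and it was higher in 7 of 7 libraries by 0.398 to 0.883 percentage points (exact adjusted p = 0.0391). In goblet wells it was 2.54% ± 0.188 against 3.80% ± 0.171, lower in 7 of 7 libraries by 0.975 to 1.53 points (exact adjusted p = 0.0391). With mucins and other secreted products left out of the total, the goblet difference was -0.848. The cycling difference went with depth. Cycling wells had a median of 12031 transcripts and other wells 6067, as means over libraries. When wells were matched on depth within each library the difference was 0.347 (exact adjusted p = 0.0391), and with every well thinned to 2000 transcripts before it was classed it was 0.244, higher in 5 of 7 libraries (exact adjusted p = 0.260).

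**Figure D1:**
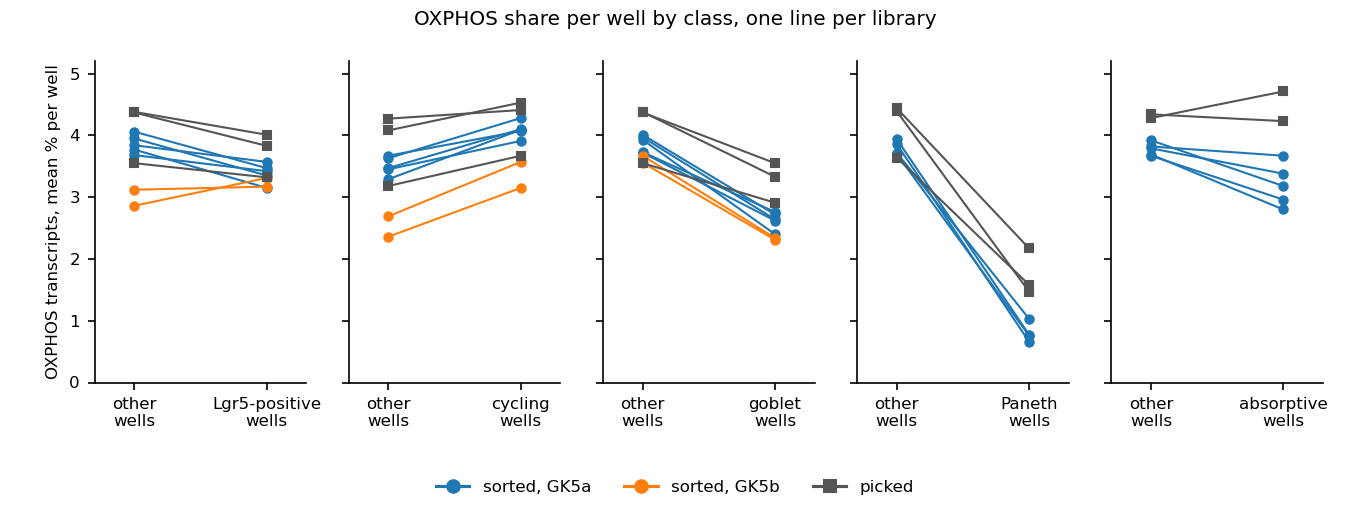
Mean percent of a well's transcripts from OXPHOS genes in other wells and in wells of each class; each line joins the 2 values of 1 library with at least 5 wells of each. All 7 sorted lines rise in cycling wells and fall in goblet wells, and all 4 sorted and 3 picked lines fall in Paneth wells.

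Paneth cells, which pack antimicrobial peptides into granules, had 5 or more wells in 4 sorted libraries, all of code GK5a. Their OXPHOS share was 1.03%, 0.757%, 0.773% and 0.659% in sorted 1, 2, 4 and 5, and that of other wells was 3.72%, 3.70%, 3.94% and 3.86%. The groups did not overlap, and Paneth wells had 0.212 times the share of other wells. With 4 libraries the exact test cannot go below p = 0.125, which is the value it gave. Of all 37 sorted Paneth wells, 34 had a share under 1.5%, against 79 of all 1615 sorted wells. Defensins and other secreted products take up much of such a well's transcripts. With these products left out of the total the share was 1.42% ± 0.189 in Paneth and 3.90% ± 0.113 in other wells (SD, n = 4), still lower in 4 of 4 libraries. Over all 10 libraries 7 could be used, and the difference was -2.75 points (exact adjusted p = 0.0260).

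In sorted wells, pooled over libraries, the share was lower in each higher band of defensin transcripts, which are themselves part of the total. Its median was 3.48% in 1443 wells with under 0.1% defensin, 2.26% in 116 wells from 0.1% to 1%, 2.11% in 19 wells from 1% to 5% and 0.752% in 36 wells from 5% to 20%. In picked wells the medians were 4.26%, 4.13%, 3.56% and 1.91% over the same bands, and 0.731% in 8 wells from 20% to 40%. With secreted products left out of the total, the sorted medians were 3.58%, 2.71%, 2.61% and 1.41%. The picked medians were then 4.40%, 4.27%, 4.06%, 2.48% and 1.49%. Over all transcripts, sorted wells just under the 5% threshold of the Paneth class thus had a median nearer to that of goblet wells than to that of Paneth wells.

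**Figure D2:**
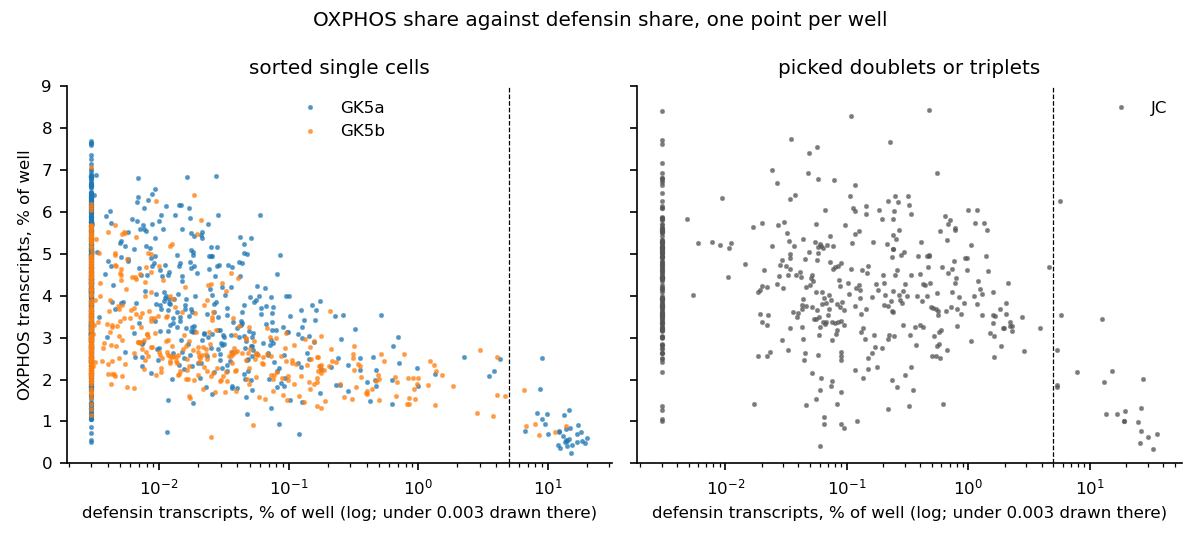
Percent of a well's transcripts from OXPHOS genes against percent from defensin genes, 1 point per well, with the 5% Paneth threshold dashed. Sorted wells right of the line lie mostly under 1.5%, whereas picked wells right of it reach 6.25%.

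Absorptive wells had an OXPHOS share of 3.20% ± 0.343 (SD, n = 5, all GK5a) against 3.78% ± 0.103 in other wells, lower in 5 of 5 libraries by 0.155 to 0.891 points. This did not pass (exact adjusted p = 0.104, and exact p = 0.0625 is the smallest that 5 libraries allow). Single wells ranged from 0.551% to 6.84%, with quartiles of 1.90% and 4.01%. After thinning to 2000 transcripts the difference was -0.069 (2 libraries lower and 3 higher). In the 2 picked libraries with enough absorptive wells the share was 4.23% against 4.34% and 4.71% against 4.28%.

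At full depth and over all transcripts, the difference between Lgr5-positive and other wells had opposite signs in the codes, though it was small in sorted 7 (0.0519). The share of Lgr5-positive wells was 3.35% ± 0.153 (SD, n = 7) against 3.61% ± 0.448 in other wells (difference -0.262, exact adjusted p = 0.125). It was lower than in other wells in all 5 GK5a libraries, by 0.466 on average, and higher in both GK5b libraries, by 0.249 on average. Without secreted products in the total it was lower in 6 of 7 libraries, with differences from -0.721 to 0.310. With thinned wells it was lower in 6 of 7 too, from -0.843 to 0.0771, so the split by code was not kept under either setting. Lgr5-positive wells themselves were at 3.15% to 3.57% in GK5a and at 3.31% and 3.17% in sorted 6 and 7 (GK5b). Other wells were at 3.68% to 4.06% in GK5a and at 2.86% and 3.12% in sorted 6 and 7. Goblet wells, low in share, numbered 151 of 264 and 90 of 261 in sorted 6 and 7. In GK5a libraries they numbered 21 to 28, of 189 to 233 wells. The part of goblet wells in the change of sign was not tested. The cycling difference was 0.588 in GK5a and 0.837 in GK5b, and the goblet difference was -1.25 and -1.29. In picked libraries the Lgr5-positive share was lower in 3 of 3, at 3.72% against 4.10%. Over all 10 libraries the Lgr5-positive difference was -0.296 (exact adjusted p = 0.0342). Markers of other cell types moved with the classes. Enteroendocrine markers summed to 0.0407% of transcripts in Lgr5-positive and 0.338% in other wells on average, to 0.0540% and 0.396% for cycling wells and to 0.0288% and 0.309% for goblet wells. Tuft markers summed to 0.0517% in Lgr5-positive and 0.0114% in other wells. Their part in these differences was not tested.

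Between classes no pair could pass once adjusted over the 10 pairs, since the 2 pairs with 7 libraries cannot go below an exact p of 0.0156 and the others have fewer libraries. Paneth wells were below Lgr5-positive, cycling, goblet and absorptive wells in 4 of 4 libraries, by 2.64, 3.29, 1.80 and 2.40 points. The largest gap over 7 libraries was between cycling and goblet wells, 4.03% against 2.47% with shared wells left out, higher in cycling wells in 7 of 7 (exact p = 0.0156, exact adjusted p = 0.0781). Lgr5-positive wells without Mki67 were at 3.17% and cycling wells without Lgr5 at 4.20%, lower in 6 of 6 libraries (exact p = 0.0312, exact adjusted p = 0.104). The picked libraries repeated the directions with smaller gaps for goblet (3.26% against 4.10%), Paneth (1.74% against 4.16%) and cycling wells (4.20% against 3.84%), though their absorptive wells (4.47%, n = 2) lay above the cycling ones. Without secreted products the picked goblet difference was -0.359, with 1 library at -0.0803. A test of picked against sorted differences passed for none of the 5 classes after adjustment, with the smallest value for goblet wells (exact p = 0.0333, exact adjusted p = 0.143).

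The 5 complexes moved together in most classes, and complex II had the widest range. In goblet wells the share of complex II was 0.0599% against 0.123% in other wells, 0.488 times as much, whereas complexes I, III, IV and V were at 0.648 to 0.697 times. In Paneth wells complex II was at 0.0147% against 0.108%, 0.138 times as much, and the others were at 0.192 to 0.251 times. Cycling wells had 1.35 times as much complex II as other wells, and 1.19 to 1.23 times as much of the other complexes. Each complex was higher in cycling wells in 7 of 7 libraries, lower in goblet wells in 7 of 7 and lower in Paneth wells in 4 of 4. In absorptive wells the complexes parted: complex I was at 0.727% against 1.02%, lower in 5 of 5 libraries, while complex II was at 0.116% against 0.108%, higher in 3 of 5. Complex I made up 22.5% ± 0.565 of the OXPHOS transcripts in absorptive wells (SD, n = 5) and 25.7% ± 0.852 in all sorted wells (SD, n = 7). In picked libraries the same parts were 22.7% in absorptive wells (n = 2) and 26.2% in all wells (n = 3).

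Single genes were tested with limma on log2(CPM + 1) of class and rest sums per library, scaled by the trimmed mean of M values (TMM), over all genes. TMM sets the bulk of genes level between the sums, so these fold changes are relative to other genes, and CPM values in this and the next paragraphs are TMM-scaled. They can differ from the share, which is relative to the total. On this scale the members were more often lower than all genes in goblet wells and, at full depth, in Lgr5-positive wells. In cycling wells 23.8% of members and 18.4% of all genes were higher, and 7.14% and 19.5% lower. In absorptive wells both directions were called less often among members than among all genes.

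**Figure D3:**
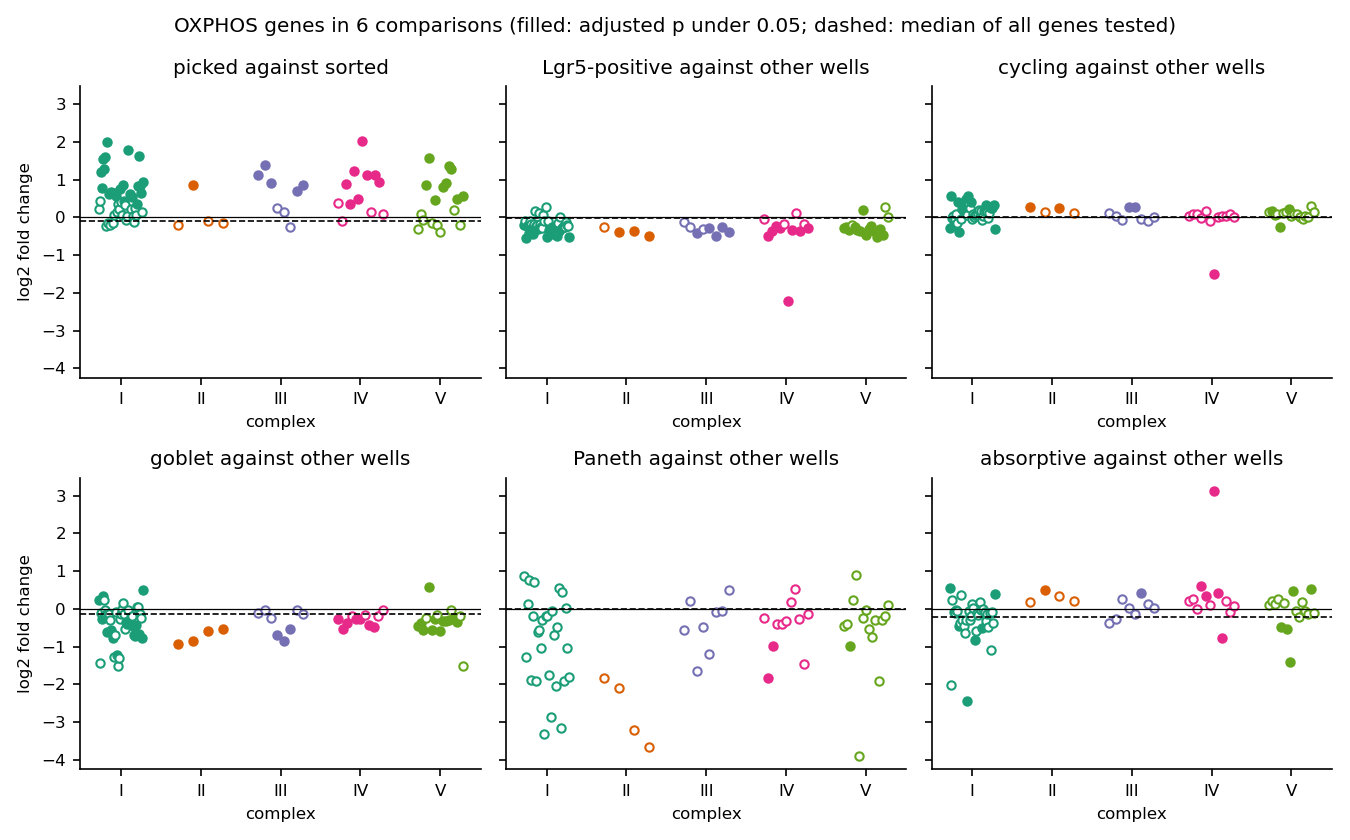
Log2 fold change of each tested OXPHOS gene by complex in 6 comparisons (limma; filled points have adjusted p under 0.05, and the dashed line is the median of all genes tested). Cox7a1 is the lowest point in Lgr5-positive and cycling wells and the highest in absorptive wells and in picked libraries.

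In goblet wells, 39 of 83 members were lower and 4 higher, where 21.4% of all 6403 genes were called lower and 21.1% higher (limma, adjusted p under 0.05). The members' median log2 fold change was -0.28 and that of all genes -0.12. All 4 subunits of complex II were lower. Sdha was at 246 ± 36.5 CPM in goblet and 461 ± 15.3 in other wells (SD, n = 7; log2 fold change -0.92 ± 0.09 SE, adjusted p = 1.14e-05), and its goblet values, 211 to 317, lay below all others, 444 to 491. Sdhb (-0.85), Sdhc (-0.60) and Sdhd (-0.53) were lower in 7 of 7 libraries too. Ndufaf4, a complex I assembly factor, was at 34.0 ± 12.5 against 76.0 ± 7.20 CPM (log2 fold change -1.22, adjusted p = 7.88e-04). Uqcrc2, a core protein of complex III, fell by 0.85, and Ndufab1, the mitochondrial acyl carrier protein that is also a complex I subunit, by 0.78 on the log2 scale (limma, adjusted p = 9.39e-05 and 1.38e-05).

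The 4 members that were higher in goblet wells were Atp5e, Ndufv3, Ndufa13 and Ndufa1. Atp5e, the small epsilon subunit of ATP synthase, was at 466 ± 101 against 306 ± 40.6 CPM (SD, n = 7), higher in 7 of 7 libraries (log2 fold change 0.58 ± 0.10 SE, limma adjusted p = 9.01e-04). The rise of Ndufa1, a small complex I subunit, was 0.22 with TMM, and with the totals of the sums it was -0.12. Its call was kept in 2 of 14 alternatives and that of Ndufa13 in 8 of 14. With those totals the members higher numbered 1 (1.20%, against 13.8% of all genes) and those lower 72 (86.7% against 43.2%). Higher calls then made up 24.2% of all calls, against 49.6% with TMM. The other lists were counted with TMM, where 21.4% of all genes were lower and 21.1% higher. Of the citric acid cycle genes 9 of 13 were lower and 1 higher, and of the fatty acid oxidation genes 8 of 12 and 0. Of the mitochondrial ribosome genes 31 of 76 were lower and 1 higher.

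In Lgr5-positive wells, 51 of 84 members were lower and 1 higher, where 17.7% of 9311 genes were lower and 12.6% higher. The members' median was -0.27 and that of all genes -0.01. The largest falls were Cox7a1 (-2.21), Ndufa11 (-0.54), Ndufb10 (-0.53), Atp5k (-0.53) and Ndufv3 (-0.51 on the log2 scale). Ndufa11, an accessory subunit of complex I, was at 94.4 ± 19.1 against 136 ± 11.4 CPM (SD, n = 7; limma adjusted p = 0.00277), lower in 7 of 7 libraries. The median over members within a library ran from -0.50 to -0.17 in GK5a and was -0.01 and -0.20 in GK5b. So sorted 6 showed no shift, with 44 of 84 members lower. With wells thinned to 2000 transcripts before they were classed, 5 of 73 members (6.85%) and 7.37% of all genes were lower, with medians of -0.22 and -0.17, so the excess of members was not seen at that depth. With totals in place of TMM, 27 members were lower (32.1%, against 13.9% of all genes) and 3 higher (3.57% against 17.1%). Without sorted 2 the members lower numbered 32 (38.1% against 13.9%), and without sorted 4 they numbered 31 (36.9% against 13.7%). Of the cytosolic ribosome genes, 68 of 74 were higher and 1 lower in the same wells, and 2 of 76 mitochondrial ribosome genes were lower and 1 higher.

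The c subunit of ATP synthase is encoded by 3 genes that give the same mature protein, Atp5g1, Atp5g2 and Atp5g3, and these did not move together. Atp5g2 was the 1 member higher in Lgr5-positive wells, at 934 ± 117 against 816 ± 139.7 CPM (SD, n = 7), higher in 7 of 7 libraries (log2 fold change 0.20 ± 0.06 SE, limma adjusted p = 0.0197). This call was kept in 9 of 14 alternatives, with values from 0.13 to 0.31. Atp5g3 was at 2069.6 ± 288 against 2914 ± 587 CPM (-0.48, limma adjusted p = 0.00286) and Atp5g1 at 878 ± 161 against 1122 ± 181 (-0.36), both lower in 7 of 7. Atp5g2 thus made up 24.2% of c-subunit transcripts in Lgr5-positive and 17.1% in other wells. In absorptive wells it made up 6.88% ± 2.60, in a range of 3.58% to 10.8% that lay below the 14.8% to 21.9% of other wells. There Atp5g2 was at 345 ± 179 against 828 ± 150 CPM (SD, n = 5; -1.41 ± 0.22 SE, limma adjusted p = 9.29e-04) and Atp5g1 at 757 ± 218 against 1060.1 ± 48.4 (-0.53, adjusted p = 0.0276), both lower in 5 of 5 libraries. Atp5g3 was at 3711 ± 707 against 2613 ± 65.7 CPM and higher in 5 of 5 (0.48, limma adjusted p = 0.0356), and it made up 77.4% of the c-subunit transcripts against 58.1%. The Atp5g3 call was kept in 6 of 12 alternatives and was lost with totals (0.22, limma adjusted p = 0.261), while that of Atp5g2 was kept in 12 of 12.

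**Figure D4:**
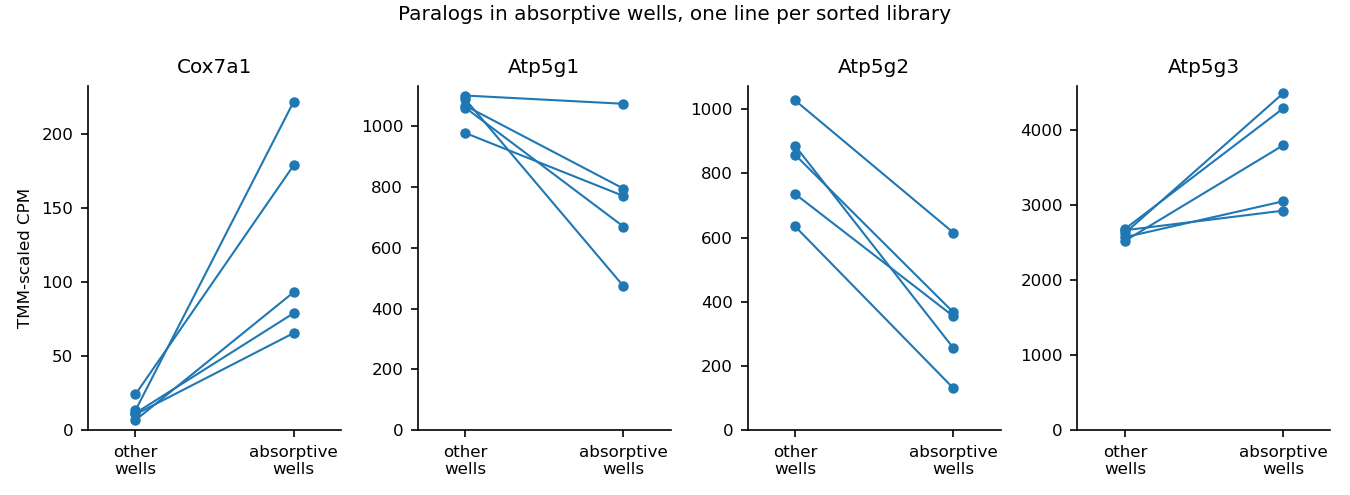
TMM-scaled CPM of Cox7a1 and the 3 c-subunit genes in other and absorptive wells, 1 line per sorted library (n = 5). Cox7a1 and Atp5g3 rise and Atp5g1 and Atp5g2 fall in all 5.

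Cox7a1 had the largest change of all members in absorptive wells. It encodes the form of complex IV subunit 7a known from heart and skeletal muscle. Its levels were 65.4, 221, 78.8, 92.9 and 179 CPM in absorptive wells of sorted 1 to 5 and 10.5, 13.2, 11.4, 6.61 and 24.0 CPM in their other wells, so the groups did not overlap (log2 fold change 3.13 ± 0.38 SE, limma adjusted p = 2.48e-04). These values rest on 86.1 transcripts in absorptive and 138 in other wells. Cox7a1 passed the filter, 45.7 CPM of totals here, through the absorptive sums alone, so its being tested was not independent of its direction. With no filter the change was 2.97 (limma adjusted p = 7.98e-04). In Lgr5-positive wells Cox7a1 was at 7.16 ± 7.88 against 25.6 ± 13.4 CPM (SD, n = 7; limma adjusted p = 0.00554), lower in 6 of 7, and in cycling wells at 11.3 ± 7.65 against 30.1 ± 16.4 (log2 fold change -1.50, adjusted p = 0.00336), lower in 7 of 7. In the 10 alternatives that could be run for absorptive wells its change stayed between 2.78 and 3.96. The muscle markers checked, among which Myh11 was at 0, summed to 7.45e-05% of transcripts in absorptive wells and 1.75e-04% in other wells on average. The paralog Cox7a2, the form found in most tissues, was at 322 ± 115 against 237 ± 61.5 CPM in absorptive wells (log2 fold change 0.41, limma adjusted p just under 0.05, a call kept in 2 of 12 alternatives). Cox7a2l, grouped with complex IV by its symbol, was at 244 ± 86.7 against 386 ± 45.7 (-0.76, limma adjusted p = 0.0105). Cox7a1 lies at chr7:30184144-30186078 (GRCm38) on the plus strand.

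In all, 10 of 77 members were higher and 8 lower in absorptive wells, where 29.1% of 4225 genes were higher and 32.5% lower. The members' median was -0.06 and that of all genes -0.20. Besides Cox7a1 the largest rises were Cox6a1 (0.60), a subunit of complex IV, Ndufa1 (0.56), Atp5o (0.52), in the stalk of ATP synthase, and Sdhb (0.50). The call of Sdhb was kept in 4 of 12 alternatives (0.24 with totals, limma adjusted p = 0.257), and that of Ndufa1 in 7 of 12. Cox6a1 was at 1854 ± 183 against 1221 ± 92.5 CPM (SD, n = 5; limma adjusted p = 0.00598). Besides Atp5g2 and Atp5g1 the largest falls were Ndufaf4 (-2.43, from 15 transcripts in absorptive wells and 0 in 1 library), Ndufb5 (-0.83) and Cox7a2l. With the length and GC trend taken out of each sum, 53 members were higher (68.8%, against 35.6% of all genes) and 3 lower (3.90% against 25.6%). The members' median was then 0.70, against 0.09 for all genes. Members have a median transcript length of 678 bases, against 1664 for all genes. Without sorted 2 the members higher numbered 3 (3.95%, against 28.3% of all genes). They numbered 4 without sorted 4 (5.26% against 29.7%) or without sorted 5 (5.19% against 28.5%).

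The lists of mitochondrial ribosome and import genes were also counted in absorptive wells, without a test against the members. Of the mitochondrial ribosome genes 42 of 60 were lower and 0 higher, of the mitochondrial import genes 12 of 17 and 0, and of the cytosolic ribosome genes 73 of 73 and 0 (limma). As a share of transcripts, the cytosolic ribosome was at 2.30% ± 0.307 in absorptive and 14.4% ± 0.601 in other wells, and the mitochondrial ribosome at 0.248% ± 0.0351 and 0.641% ± 0.0247 (SD, n = 5). Citric acid cycle genes were at 0.595% ± 0.0631 against 0.381% ± 0.0212, and 6 of 13 were higher and 2 lower. Glycolysis genes were at 0.890% ± 0.164 against 0.481% ± 0.0432, and 6 of 11 were higher and 2 lower. The shares of both were higher in 5 of 5 libraries, while that of OXPHOS genes was lower in 5 of 5. Which genes take up the total sets these shares, and the ribosomal protein share moved with them; its part was not tested.

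In cycling wells, 20 of 84 members were higher and 6 lower, where 18.4% of 10170 genes were higher and 19.5% lower. The members' median was 0.09 and that of all genes 0.01. Ndufa8, named here for its promoter, rose by 0.22 there and was lower in Lgr5-positive wells (-0.24, limma adjusted p = 0.0357 and 0.0185). The 5 largest rises were Ndufa10 (0.58), a complex I subunit, and the assembly factors Ndufaf4 (0.56), Ndufaf2 (0.49), Ndufaf1 (0.42) and Ndufaf7 (0.41 on the log2 scale). Of the 7 assembly factors these 4 passed, and all 7 had a fold change above 0, from 0.05 to 0.56. Ndufaf4 was at 85.4 ± 9.10 against 57.7 ± 8.65 CPM (SD, n = 7; limma adjusted p = 0.00146), and its cycling values, 71.7 to 98.6, did not overlap with the 46.7 to 67.2 of other wells. The falls were Cox7a1, Ndufa6 (-0.39), Ndufv3 (-0.31), Ndufa1 (-0.28), Ndufa13 and Atp5e (-0.25), of which Ndufa13 kept its call in 3 and Atp5e in 5 of 14 alternatives. Of the mitochondrial ribosome genes 46 of 76 were higher and 0 lower, with a median of 0.38, and of the import genes 12 of 23 and 0. The count of members moved with the setting. With totals 45 were higher (53.6%, against 27.8% of all genes) and 2 lower (2.38% against 14.1%). Without sorted 7, 7 were higher (8.33%, against 15.8% of all genes). Leaving out each sorted library in turn gave 8.33% to 20.2% of members and 15.2% to 17.6% of all genes higher. With wells thinned to 2000 transcripts 0 of 76 were higher, against 5.81% of all genes, and 1 was lower.

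In Paneth wells only 1300 transcripts of members stood behind the sums, from 30 wells, and 66 members could be tested. Of these 3 were lower and 0 higher (limma; 10 and 3 at an unadjusted p under 0.05), where 1.86% of 1183 genes were lower and 11.8% higher. The filter came to 135 CPM here, and 30 of the 66 members, Cox5a among them, passed it through the other wells alone, so these counts do not describe members independently of their direction. Cox5a, a complex IV subunit, was at 135, 154, 82.0 and 136 CPM in Paneth wells of sorted 1, 2, 4 and 5 and at 433, 389.6, 464 and 479.7 CPM in their other wells (log2 fold change -1.82 ± 0.28 SE, adjusted p = 0.00564). The groups did not overlap, though only 9 transcripts in Paneth wells stand behind these values. Cox5b (-0.98, 14 transcripts) and Atp5c1 (-0.98, 24 transcripts) were the others, with calls kept in 6 and 5 of 11 alternatives. The TMM scaling takes out most of the fall in share. With the totals of the sums 65 of 66 members (98.5%) and 77.8% of all genes were lower, with medians of -2.55 and -2.12. The share of the cytosolic ribosome fell too, to 4.32% from 13.5%, and that of the citric acid cycle to 0.0786% from 0.402%.

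Picked and sorted libraries were compared as wholes. The mean OXPHOS share per well was 3.51%, 4.34% and 4.30% in picked 1 to 3 and 3.53% ± 0.371 (SD, n = 7) in sorted libraries, from 2.91% to 3.90%. The difference of 0.517 points did not pass (exact two-sided permutation p = 0.10), and picked 1 lay within the sorted range. Within the sorted libraries GK5a averaged 3.74% and GK5b 3.02% (exact permutation p = 0.0952). Picked libraries were above GK5a by 0.312 and above GK5b by 1.03. Complex III, at 0.464% against 0.351%, had the smallest p of the 5 complexes (exact p = 0.0167, exact adjusted p = 0.0833). Ribosomal protein genes took 17.8% to 21.1% of transcripts in picked and 12.5% to 14.5% in sorted libraries. With these genes, Rn45s and defensins left out of the total, the OXPHOS share was 5.51% ± 0.725 (SD, n = 3) against 4.15% ± 0.437 (SD, n = 7). This difference of 1.36 had an unadjusted exact permutation p of 0.0167, and it was the only alternative run for this comparison that passed. Leaving out genes that take more of the total in picked libraries itself raises the picked share by more.

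Gene by gene, 45 of 84 members were higher in picked libraries and 0 lower (limma; 48 and 1 at an unadjusted p under 0.05), where 14.2% of 10427 genes were higher and 16.0% lower. The members' median log2 fold change was 0.46 and that of all genes -0.09. In 45 members all 3 picked libraries lay above all 7 sorted ones (53.6%), as did 13.1% of all genes tested. Ndufa5, a complex I subunit, was at 487, 351 and 354 CPM in picked 1 to 3 and between 77.9 and 111 CPM in the sorted ones, a difference of 2.01 ± 0.16 (SE) on the log2 scale (adjusted p = 4.66e-06). Cox7a1 was at 84.9, 47.4 and 89.6 CPM against 12.0 to 31.8 (2.02 ± 0.34 SE, adjusted p = 9.69e-04). Neither gene's groups overlapped. Atp5e rose to 929, 1033 and 1005 CPM from 259.6 to 438 (limma, 1.58, adjusted p = 1.65e-05), and Ndufb7 (1.78), Ndufs7 (1.62) and Ndufa3 (1.59) were among the 5 largest rises.

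**Figure D5:**
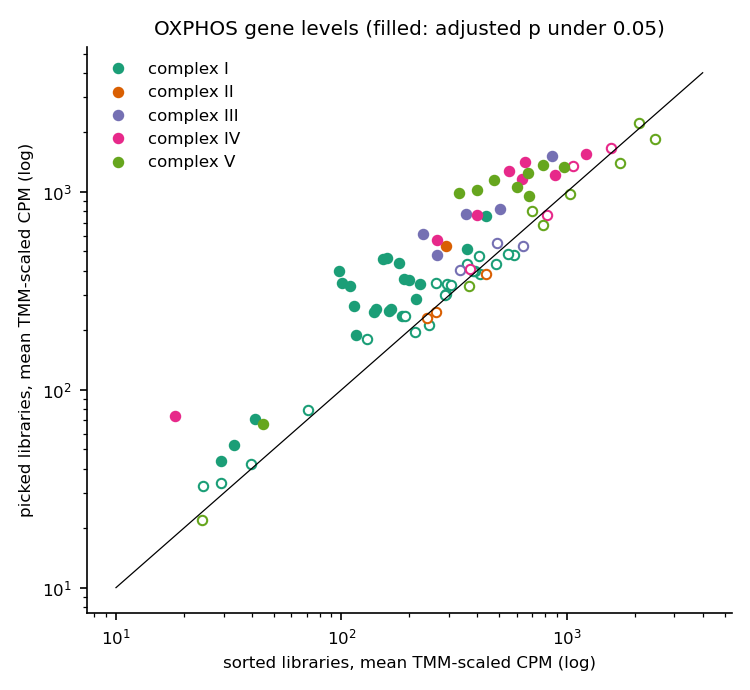
Mean TMM-scaled CPM of each OXPHOS gene in picked (n = 3) and sorted (n = 7) libraries on log axes, with the line of equal levels; filled points passed in limma. The largest rises are among genes of low and middle level, and Atp5g3, the rightmost point, lies below the line.

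The rise was uneven between complexes and between members of a complex. It passed in 22 of 43 members of complex I, 1 of 4 of complex II, 5 of 8 of complex III, 8 of 12 of complex IV and 9 of 17 of complex V. Sdhb, the iron-sulfur subunit of complex II, was at 530.2 ± 109 against 291 ± 41.2 CPM (0.86, limma adjusted p = 0.00154), while Sdha (-0.20), Sdhc (-0.09) and Sdhd (-0.14 on the log2 scale) did not pass. Among the c-subunit genes Atp5g1 was higher (0.47, adjusted p = 0.0360), and Atp5g3 (-0.39, adjusted p = 0.0865) and Atp5g2 (-0.21, adjusted p = 0.340) did not pass. Atp5g1 made up 34.6% of c-subunit transcripts in picked and 23.0% in sorted libraries. The members called higher had a median transcript length of 607 bases and those not called 746. With the length and GC trend taken out of each library, 38 members were higher (45.2%, against 12.4% of all genes) and 3 lower (3.57% against 12.5%). With library totals in place of TMM, 25 were higher (29.8% against 8.03%) and 8 lower (9.52% against 33.3%). The median of all genes then moved to -0.40. Of the mitochondrial ribosome genes 33 of 76 were higher and 3 lower, and of the citric acid cycle genes 1 of 13 and 2. Xist was at 115 to 155 CPM of totals in picked and at most 0.978 in sorted libraries, and the Y-linked Ddx3y was at 0 in picked and 60.7 to 100.2 CPM in sorted libraries, so that sex, code, dissociation and the number of cells per well cannot be told apart in this comparison.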

How the data were processed

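CEL-seq2 libraries of sorted single cells (7) and picked doublets or triplets (3) were analysed. The submitters' processing notes name BWA 0.6.2-r126 and the mm10 build. The counting software and its strand setting were not stated in the sources used, so overlapping antisense genes cannot be separated. The deposited values are the authors' estimates of molecules per gene and well, which map back to whole barcode counts for 100% of values within 0.001. This unit was recorded as other, so no count model was run.

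Wells with at least 1000 endogenous transcripts entered. Shares were averaged per library and tested with exact sign-flip tests (classes) or exact permutation tests (groups). Values summed per library or per class and library were TMM-scaled and entered limma 3.58.1 (R 4.3.3) on the log2(CPM + 1) scale, with library as a factor for classes, and Benjamini-Hochberg adjusted p under 0.05 as a call. Fold changes of low genes are understated. For classes a gene needed 5 transcripts at the median class sum in as many sums as libraries. This filter was set after simulated data had shown biased folds under the filter of the library comparison. No doublet caller was run.

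The members and lists were chosen with earlier results of these data known. Named genes were up to 5 called members with the largest change in each direction per comparison, the 10 with the highest level and a fixed set of core subunits. Gene positions and lengths come from GENCODE M21 (GRCm38, which is mm10), and promoters from RefSeq (GRCm38.p6). Alternatives covered scaling, filters, pseudocount, depth, class thresholds, codes and single libraries. Shares of wells and low counts carry counting error beside the spread between libraries.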

Additional observations from a re-analysis of the deposited data

Results flagged for a closer look

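In 1 of 59 quantities checked over the sorted libraries a single library lay far from the others, and chance alone would give such a library in about 1 of 20. This was Atp5k, the e subunit of ATP synthase, at 634 TMM-scaled CPM in sorted 1 and 397 to 472 CPM in the other 6.

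The OXPHOS share of Lgr5-positive wells minus that of other wells had opposite signs in the codes of the sorted libraries. In the 5 GK5a libraries it was -0.466 points on average, from -0.612 to -0.261. In the 2 GK5b libraries it was 0.249, from 0.0519 to 0.447. Without secreted products in the total, or with thinned wells, the difference was above 0 in 1 of 7 sorted libraries. Other wells were at 2.86% and 3.12% in GK5b and at 3.68% to 4.06% in GK5a, and goblet wells, low in share, were more numerous in GK5b. The difference between the codes and the part of goblet wells in it were not tested.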

How the results depend on the processing

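The direction of every share difference was kept under the alternatives run, apart from Lgr5-positive wells in the GK5b libraries alone (0.249), and the goblet and Paneth shares were lower in all of them. Under the settings that lost the call, the cycling and goblet differences in share were 0.511 and -1.52 for sums over wells, 0.244 and -1.36 with wells thinned to 2000 transcripts, 0.315 and -1.50 for wells of 1 class against wells of none, 0.588 and -1.25 in GK5a alone and 0.837 and -1.29 in GK5b alone. Leaving out 1 library gave 0.622 to 0.702 and -1.31 to -1.22 with an adjusted p of 0.0781 each time, where 6 libraries cannot go below an unadjusted exact p of 0.0312. Calls were gained for picked against sorted libraries without ribosomal protein genes, Rn45s and defensins in the total (1.36) and over all 10 libraries for Lgr5-positive (-0.296) and Paneth wells (-2.75).

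Counts of members called moved with scaling, thinning and the length and GC correction. With totals in place of TMM, members higher and lower numbered 25 and 8 in picked libraries, 3 and 27 in Lgr5-positive and 45 and 2 in cycling wells. They numbered 1 and 72 in goblet, 0 and 65 in Paneth, and 1 and 23 in absorptive wells. Of all genes, 8.03% and 33.3% were then higher and lower in picked libraries, 17.1% and 13.9% in Lgr5-positive and 27.8% and 14.1% in cycling wells. For goblet wells these were 13.8% and 43.2%, for Paneth 3.13% and 77.8% and for absorptive wells 24.5% and 40.1%. Higher calls as a part of all calls over all genes moved from 46.9% to 19.4% (picked), 41.5% to 55.1% (Lgr5-positive), 48.6% to 66.3% (cycling), 49.6% to 24.2% (goblet), 86.4% to 3.87% (Paneth) and 47.3% to 37.9% (absorptive). With wells thinned to 2000 transcripts, fewer genes could be tested, and the counts were 0 and 5 in Lgr5-positive, 0 and 1 in cycling, 3 and 22 in goblet, 0 and 0 in Paneth and 4 and 6 in absorptive wells. Members lower then made up 6.85% in Lgr5-positive and 31.4% in goblet wells, against 7.37% and 18.3% of all genes, and members higher 0% in cycling wells against 5.81%. With length and GC trends removed 3 members were lower in picked libraries, 3 were higher and 32 lower in Lgr5-positive and 23 lower in goblet wells. In Paneth wells 7 were lower, and in absorptive wells 53 were higher and 3 lower. Of all genes, 12.5% were lower in picked libraries, 16.0% higher and 14.8% lower in Lgr5-positive and 16.6% lower in goblet wells. In Paneth wells 3.65% of them were lower, and in absorptive wells 35.6% were higher and 25.6% lower. Without a filter 0 were higher in Lgr5-positive, 2 higher in goblet, 43 lower in Paneth, and 4 higher and 17 lower in absorptive wells. Shares of all genes in the same order were 4.92%, 7.37%, 29.3%, and 8.46% and 31.1%. The filter of the library comparison gave 2 higher in goblet, 36 lower in Paneth, and 4 higher and 13 lower in absorptive wells. Shares of all genes in the same order were 12.7%, 15.3%, and 18.7% and 32.5%. All 10 libraries gave 0 higher in Lgr5-positive, 1 higher in goblet, 2 higher in Paneth, and 2 higher and 5 lower in absorptive wells. Shares of all genes in the same order were 6.53%, 16.7%, 22.0%, and 22.4% and 26.5%. GK5a alone gave 1 lower in picked libraries, where 15.9% of all genes were lower. The cause of these moves was not tested.

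Leaving out 1 library gave 0 to 1 lower in picked libraries, 0 to 1 higher and 31 to 58 lower in Lgr5-positive and 7 to 17 higher and 4 to 6 lower in cycling wells. It gave 0 to 1 higher and 1 to 2 lower in Paneth, and 3 to 11 higher and 5 to 10 lower in absorptive wells. Of all genes, 12.4% to 16.0% were lower in picked libraries. In Lgr5-positive wells 8.62% to 14.6% of them were higher and 13.7% to 18.5% lower, and in cycling wells 15.2% to 17.6% and 16.7% to 19.4%. In Paneth wells 7.65% to 9.28% were higher and 1.20% to 2.02% lower, and in absorptive wells 28.3% to 29.7% and 27.8% to 31.2%. In cycling wells 12 were higher without sorted 2 or sorted 3 and 13 without sorted 1. In Paneth wells 1 was lower without sorted 1, 4 or 5, and in absorptive wells 5 were lower without sorted 1. Single genes changed sign in few settings: with length and GC trends removed Cox6a1 (-0.23, picked), Cox6c (0.03, goblet), Atp5e (0.53) and Ndufa4 (0.75, both absorptive), with thinned wells Atp5g2 (-0.09), Ndufs1 (-0.01) and Sdhc (-0.07, all cycling), with totals Ndufa1 (-0.12, goblet), and over all 10 libraries Ndufa1 (-0.68, absorptive). GK5b alone gave no value for Paneth or absorptive wells, with too few wells. No paired analysis was possible because the labels give no replicate numbers shared between groups. The class comparisons already compare wells of the same library.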
